A study of Danio rerio with 18 samples.

Results

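The expression of 9 genes of the yellow pigment cell, the xanthophore, was followed across 18 zebrafish (Danio rerio) tumours driven by BRAFV600E. They were chosen by name: uraha (ENSDARG00000100719), gch2, xdh, pts, slc2a11b, pax7a, pax7b, scarb1 and mycbp2. All 9 of the 9 were found among the 27057 genes of the count table, and 8 were among the 18731 genes that passed the expression filter, with xdh as the exception. The table of names gives xdh, pts, scarb1 and mycbp2 in capitals, and it calls both pax7 copies PAX7, so these are told apart here by their identifiers, ENSDARG00000100398 and ENSDARG00000070818. Which of them is pax7a and which pax7b could not be settled from the tables used here.

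RNA sequencing had been done on whole adult tumours labelled as melanoma, all from fish of the Tu background carrying p53-/-. A plasmid injected at the 1-cell stage drove BRAFV600E, an always-active form of the BRAF kinase, from the mitfa promoter in 6 tumours and from the sox10 promoter in 12. The mitfa promoter is active in the melanocyte lineage, while the sox10 promoter is active more broadly in neural crest cells and in glia derived from them. The injected fish were F0 animals, so only a portion of their cells carries the plasmid, and both groups lack p53. The labels do not give the number of fish behind the tumours, so the p-values speak only to how far these samples spread. Because whole tumours were extracted, fewer cells of a type and less RNA per cell cannot be told apart in any value given here.

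Xanthophores arise from the neural crest, like the black melanocytes and the silvery iridophores of the same skin. Their yellow comes from pteridines, which are built from GTP by a chain of enzymes that starts with GTP cyclohydrolase and passes through 6-pyruvoyltetrahydropterin synthase, and from carotenoids, which are taken up from the diet through scavenger receptors and stored in lipid droplets. The same first enzymes also make tetrahydrobiopterin, the cofactor of aromatic amino acid hydroxylases, and Pax7 transcription factors are needed for the lineage in zebrafish.

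Sequencing gave between 14973777 and 21191902 reads assigned to genes per tumour. Levels are given in CPM, which are counts scaled to a common library size, and are not comparable between genes because they are not divided by gene length. Mitfa tumours 1 and 5 differed from the other 4 mitfa tumours in several of the genes below, so results that change without them are given both ways. Sox10 tumours 9 and 10 were more alike than other libraries, and results that change when they are summed into 1 are named. The sum over 10 melanocyte marker rows was 4262 to 18171 CPM in mitfa tumours and 23.1 to 132 CPM in sox10 tumours. The 8 neural marker rows summed to 15.9 to 425 CPM in mitfa tumours and 2050 to 5895 CPM in sox10 tumours. Scores of muscle and of epidermis markers were used as covariates, with values given where they end a call, while the part of melanocytes and neural cells in the differences below was not tested.

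Of the 8 pigment genes tested, 5 were lower in sox10 tumours (uraha, slc2a11b, gch2, pts and the PAX7 copy ENSDARG00000100398), 0 were higher and 3 did not pass the test (the other PAX7 copy, scarb1 and mycbp2). Their median log2 fold change, sox10 minus mitfa, was -2.86, against -0.03 over all genes tested. In the same edgeR quasi-likelihood test, with a Benjamini-Hochberg adjusted p threshold of 0.05, 22.4% of all genes tested were called lower, 21.5% higher and 43.9% either way. For uraha and slc2a11b every sox10 tumour lay below every mitfa tumour, which held for 4.91% of all genes tested, and for no pigment gene did every sox10 tumour lie above, which held for 6.85%. Without mitfa tumours 1 and 5 the number lower was again 5, with scarb1 in place of the PAX7 copy.

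**Figure D1:**
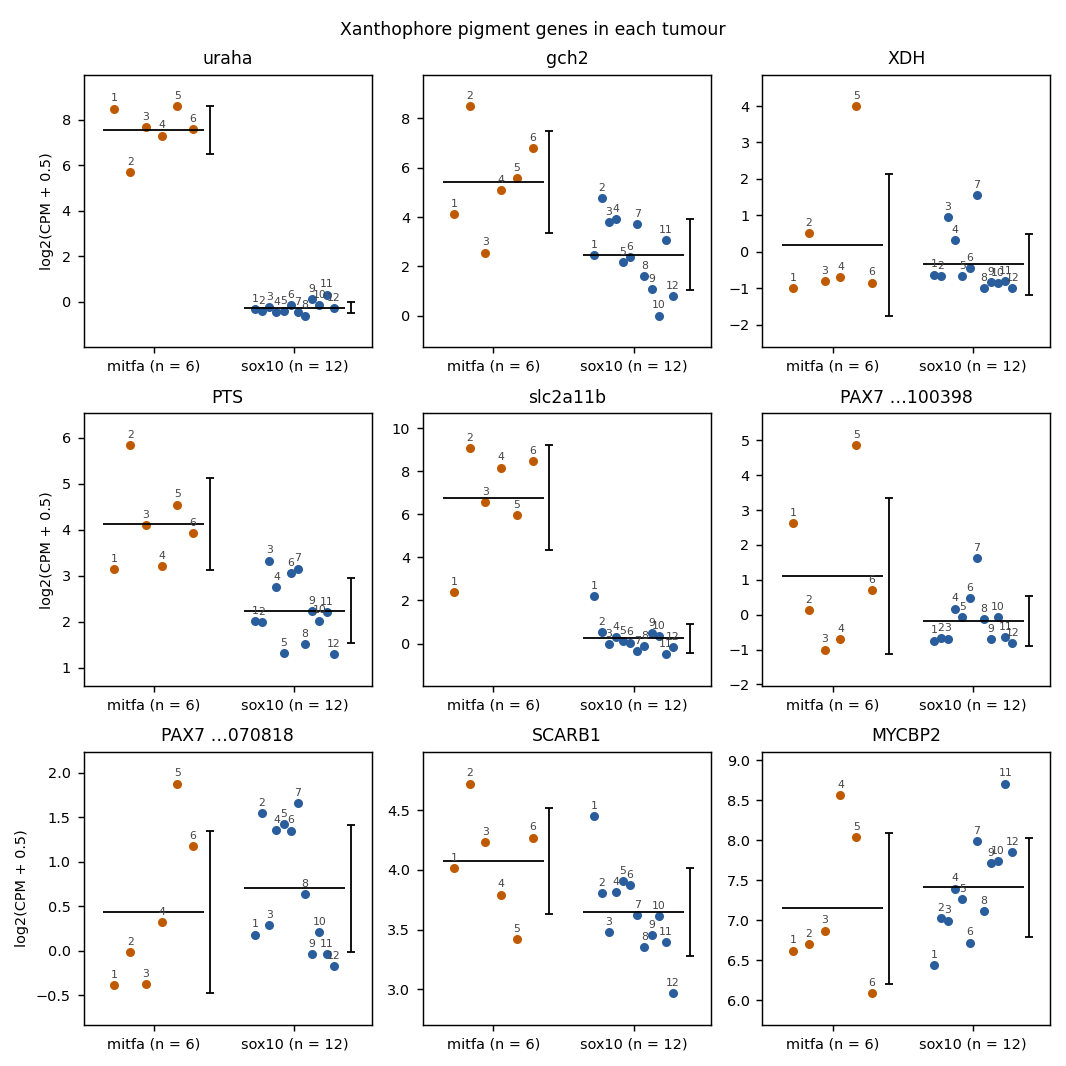
Level of each pigment gene in every tumour, as log2(CPM + 0.5), with one panel per gene, mitfa tumours on the left and sox10 tumours on the right. Numbers are tumour numbers, lines are group means and bars are 1 SD to either side. The groups stand fully apart for uraha and slc2a11b and overlap for the other 7 genes, and mitfa tumour 5 stands alone at the top for XDH and for PAX7 ENSDARG00000100398.

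Among the pteridine enzymes gch2, the GTP cyclohydrolase that xanthophores use for the first step, was lower in sox10 tumours on average, with a wide spread in both groups. In mitfa tumours 1 to 6 it stood at 17, 363, 5.38, 33.3, 46.9 and 111 CPM. In sox10 tumours the lowest was 0.503, the median 4.80 and the highest 26.9 CPM, the last in sox10 tumour 2. Thus mitfa tumour 2 was far above every other tumour, 2 of 6 mitfa tumours (1 and 3) lay below the highest sox10 tumour, and 5 of 12 sox10 tumours lay above the lowest mitfa tumour. The means were 96.0 ± 136 CPM (SD, n = 6) and 7.91 ± 7.75 CPM (SD, n = 12), which differ on the log2 scale by -3.60 ± 0.76 (SE, edgeR adjusted p = 0.000766). Without mitfa tumour 2 the difference was -2.43 (edgeR adjusted p = 0.00930), the smallest size when single tumours were left out.

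The second enzyme, pts, the 6-pyruvoyltetrahydropterin synthase, was also lower in sox10 tumours on average. Across mitfa tumours 1 to 6 it had 8.35, 57.2, 16.8, 8.80, 22.9 and 14.7 CPM. Sox10 tumours ran from 1.94 to 9.57 CPM with a median of 3.85. Mitfa tumour 2 was again the highest of all, and only mitfa tumours 1 and 4 fell within the sox10 range. The log2 fold change was -2.16 ± 0.41 (SE, edgeR adjusted p = 0.000272), and -1.58 without mitfa tumour 2 (edgeR adjusted p = 0.00225).

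Xanthine dehydrogenase, xdh, which oxidises purines and pteridines, was near 0 in most tumours and did not pass the filter. Values in mitfa tumours 1 to 6 were 0, 0.930, 0.0681, 0.116, 15.5 and 0.0566 CPM, and the 15.5 CPM of mitfa tumour 5 rests on 303 reads. Sox10 tumours ran from 0 to 2.42 CPM with a median of 0.127. A single mitfa tumour was therefore high, and the remaining 5 lay within the range of the sox10 tumours. On the log2(CPM + 0.5) scale the difference of the means was -0.54 (2-sided exact permutation p = 0.480), and it changed sign to 0.23 without mitfa tumour 5. In edgeR with no filter on low counts the log2 fold change was -2.65 (edgeR adjusted p = 0.0816). Without mitfa tumour 1 the gene passed the filter, at -2.87 (edgeR adjusted p = 0.0498), a difference that rests on mitfa tumour 5, since it was 0.61 without both (edgeR adjusted p = 0.719). The gene also passed the filter without mitfa tumour 3 (-2.84), 4 (-2.86) or 6 (-2.85). In those runs it missed the threshold (edgeR adjusted p = 0.0602, 0.0594 and 0.0620).

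The wider pteridine and tetrahydrobiopterin list had 13 genes tested, of which 7 were lower in sox10 tumours, 0 were higher and 6 did not pass, with a median log2 fold change of -1.34. Over all genes tested the share called lower was 22.4%. Besides gch2 and pts, the lower genes were GCH1, the second GTP cyclohydrolase, at -2.24 ± 0.45 (SE, edgeR adjusted p = 0.000549), and PCBD1, which recycles the cofactor, at -2.29 ± 0.30 (SE, edgeR adjusted p = 5.44e-06). PCBD1 was the only gene of this list whose groups did not overlap, with 19.9 to 111 CPM in mitfa tumours and 4.94 to 18 CPM in sox10 tumours. Every sox10 tumour lay lower in this way for 4.91% of all genes tested. The dihydropteridine reductase QDPR (ENSDARG00000040190), which also recycles the cofactor, had a log2 fold change of -1.34 (edgeR adjusted p = 0.00508), and -0.91 with the epidermis score as covariate (edgeR adjusted p = 0.0503). The aldehyde oxidase aox5, a marker of zebrafish xanthophores, was at -3.95 ± 0.76 (SE, edgeR adjusted p = 0.000334), and mocos, which activates the molybdenum cofactor that xdh and aldehyde oxidases need, at -4.84 ± 0.52 (SE, edgeR adjusted p = 6.39e-07). Levels of aox5 were low, at 0.136 to 7.02 CPM in mitfa and 0 to 0.773 CPM in sox10 tumours, the latter from 33 reads in all. Genes that did not pass were GCHFR, a regulatory protein of GTP cyclohydrolase, at -0.91, QDPR (ENSDARG00000037378) at -0.52, dhfr, dihydrofolate reductase, at -0.08, aox6 at -1.08, mycbp2 at 0.12 and the sepiapterin reductase SPR (ENSDARG00000004406), which completes tetrahydrobiopterin, at 0.22. SPR had 58.8 ± 62.0 CPM (SD, n = 6) in mitfa and 68.6 ± 24.6 CPM (SD, n = 12) in sox10 tumours. Without mitfa tumours 1 and 5, 9 of the list were lower. The added genes were GCHFR (-1.36, edgeR adjusted p = 0.0245) and QDPR (ENSDARG00000037378) (-0.77, edgeR adjusted p = 0.0236). Both also passed without mitfa tumour 1 alone (edgeR adjusted p = 0.0457 and 0.0364). With sox10 tumours 9 and 10 summed, 6 were lower, since aox5 then did not pass the filter.

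The purine pathway supplies the GTP that pteridines are made from, and purines are also the reflective material of iridophores. Of 15 genes tested in a list of purine synthesis, 12 were lower in sox10 tumours, 1 was higher and 2 did not pass, with a median log2 fold change of -1.19. The share called lower over all genes tested was 22.4%. The list also holds HPRT1, an enzyme of purine salvage, which was among the lower genes at -0.95, and without it 11 of 14 were lower. PAICS, a bifunctional enzyme in the middle of the pathway, ranged from 88.8 to 1902 CPM in mitfa tumours and from 25.2 to 82.3 CPM in sox10 tumours, with no overlap and a log2 change of -3.95 ± 0.44 (SE, edgeR adjusted p = 8.06e-07). IMPDH1 (ENSDARG00000042336), which commits purines to GTP, changed by -3.07, the glutamine-using enzymes PFAS and PPAT by -2.35 and -2.24, and the second IMPDH1 copy (ENSDARG00000029524) by -1.78. Its relative IMPDH2 was the exception and rose by 1.27 ± 0.34 (SE, edgeR adjusted p = 0.00464). GART and GMPS did not pass, at -0.03 and -0.25. The call of ADSS1 at -1.19 (edgeR adjusted p = 0.0274) was lost with the epidermis score as covariate (-1.21, edgeR adjusted p = 0.0514). It was also lost in limma with sample quality weights (-1.27, limma adjusted p = 0.0552). Without any one of mitfa tumours 2, 3 and 5 it did not pass either (edgeR adjusted p up to 0.0930). With the epidermis score 11 genes of the list were lower. The summed level of the list was 968 to 3714 CPM in mitfa tumours and 451 to 634 CPM in sox10 tumours. Iridophore markers moved the same way, with 5 of 6 tested lower, a median of -3.04 and sums of 223 to 535 against 9.07 to 103 CPM, and their part in the purine genes was not tested.

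The enzyme uraha, a 5-hydroxyisourate hydrolase of urate breakdown, separated the groups most widely of the genes followed. Mitfa tumours 1 to 6 had 358, 51.3, 205, 157, 383 and 193 CPM. Sox10 tumours ran from 0.158 to 0.745 CPM with a median of 0.308, so that the lowest mitfa tumour stood well above the highest sox10 tumour. With means of 225 ± 126 CPM (SD, n = 6) and 0.354 ± 0.168 CPM (SD, n = 12), the log2 fold change was -9.29 ± 0.40 (SE, edgeR adjusted p = 6.68e-12). Counting uraha itself, 4 of the 18731 genes tested had a log2 fold change as low or lower. The others were melanocyte marker rows, pmela at -9.65, TYRP1 (ENSDARG00000056151) at -9.55 and TYR at -9.44, so a fall of this size was not particular to uraha. Mitfa tumour 2, the highest of all for gch2 and pts, was the lowest of the mitfa group for uraha, and mitfa tumours 1 and 5 were the highest.

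Besides uraha and xdh, the genes of urate breakdown were near 0 in both groups, and like xdh they did not pass the filter. The urate oxidase uox, which makes the substrate of uraha, reached at most 1.36 CPM in a mitfa tumour and 0.0677 CPM in a sox10 tumour. The second hydrolase copy urahb reached 1.56 and 0.856 CPM, and urad, the decarboxylase of the next step, 0.164 and 0.322 CPM. The allantoicase ALLC reached 0.359 and 0.654 CPM. Of this short list uraha was thus the one gene with enough reads to test.

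Among the sugar transporter relatives slc2a11b, whose medaka counterpart is needed for normal pigment cells of the xanthophore and leucophore lineage, was also lower in every sox10 tumour. Mitfa tumours 1 to 6 had 4.77, 546, 93.8, 289, 62.7 and 354 CPM. Sox10 tumours ran from 0.203 to 4.05 CPM with a median of 0.554. The groups came close at one point only, where mitfa tumour 1 at 4.77 CPM stood just above sox10 tumour 1 at 4.05 CPM. The log2 fold change was -8.01 ± 0.75 (SE, edgeR adjusted p = 1.06e-07), and 21 of the genes tested were as low or lower. Its spread within the mitfa group was large, with the highest tumour 115 times the lowest, against 7.48 times for uraha.

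Its paralog slc2a15b, which is needed in medaka for the same lineage, was low in the same mitfa tumour and in mitfa tumour 5. Mitfa tumours 1 to 6 had 5.23, 1370, 470, 221, 1.69 and 176 CPM, and sox10 tumours 0.341 to 2.01 CPM. Mitfa tumour 5 lay inside the sox10 range, and the other 5 above it. The log2 fold change was -8.31 ± 0.89 (SE, edgeR adjusted p = 5.72e-07). The other copy, slc2a15a, which did not pass the filter, was instead highest in mitfa tumours 1 and 5, with 16.2, 1.04, 0.477, 3.24, 20.8 and 0.792 CPM in mitfa tumours 1 to 6 and at most 0.297 CPM in a sox10 tumour.

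On the carotenoid side, the receptor scarb1 did not pass the test, while several genes of carotenoid cleavage were lower in sox10 tumours. The scavenger receptor scarb1, which zebrafish xanthophores need to take up carotenoids, stood at 15.6, 25.9, 18.3, 13.4, 10.2 and 18.8 CPM in mitfa tumours 1 to 6. Sox10 tumours ran from 7.32 to 21.3 CPM with a median of 11.8. The groups overlapped over most of their range, and the log2 fold change of -0.46 ± 0.22 did not pass (SE, edgeR adjusted p = 0.0972), with an interval of 2 SE from -0.90 to -0.02. The call turned on single tumours: without mitfa tumour 5 it was -0.57 (edgeR adjusted p = 0.0455) and without sox10 tumour 1 it was -0.56 (edgeR adjusted p = 0.0325). Without both mitfa tumours 1 and 5 it was -0.63 (edgeR adjusted p = 0.0406).

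Of 13 tested genes in the list of carotenoid uptake, storage and cleavage, 8 were lower in sox10 tumours, 2 were higher and 3 did not pass, with a median log2 fold change of -1.43. Among all genes tested 22.4% were called lower and 21.5% higher. The apolipoprotein D relative apoda.1, a lipid carrier, showed the largest difference of the list, with 7.33 to 46.9 CPM in mitfa and 0 to 0.901 CPM in sox10 tumours and -6.85 ± 0.61 on the log2 scale (SE, edgeR adjusted p = 5.70e-08). The carotenoid-cleaving oxygenases were lower as well: BCO2 (ENSDARG00000041715) at -5.17, BCO1 at -3.88, BCO2 (ENSDARG00000055722) at -3.76, bco2l at -1.43 and bco1l at -1.09. The call of bco1l was marginal (edgeR adjusted p = 0.0478) and was lost with the epidermis score as covariate (-0.97, edgeR adjusted p = 0.156), with sox10 tumours 9 and 10 summed (-1.08, edgeR adjusted p = 0.0608) and without any one of mitfa tumours 3, 4 and 6 or of sox10 tumours 3 to 7 and 9 to 12 (edgeR adjusted p up to 0.220). The hormone-sensitive lipase lipeb was at -1.99, with 4.02 to 13.6 CPM in mitfa and 1.17 to 3.10 CPM in sox10 tumours.

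For plin6, a perilipin that coats pigment-bearing lipid droplets in fish xanthophores, the difference rested on 2 tumours. Mitfa tumours 1 to 6 had 92.6, 6.07, 4.09, 3.07, 33.6 and 6.17 CPM, and sox10 tumours 1.1 to 5.28 CPM. The change of -2.98 ± 0.56 on the log2 scale (SE, edgeR adjusted p = 0.000282) became -0.66 without mitfa tumours 1 and 5 (edgeR adjusted p = 0.145). The receptors that rose were CD36, which binds fatty acids and lipoproteins, by 3.08 ± 0.96 (SE, edgeR adjusted p = 0.0145) and scarb2a, a lysosomal relative of scarb1, by 1.44 ± 0.54 (SE, edgeR adjusted p = 0.0374). Neither passed without mitfa tumours 1 and 5, at 2.57 (edgeR adjusted p = 0.0604) and 1.19 (edgeR adjusted p = 0.151). Limma with sample quality weights called neither CD36 (2.16, limma adjusted p = 0.185) nor scarb2a (1.12, limma adjusted p = 0.0966). The call of scarb2a was also lost with the epidermis score as covariate (1.03, edgeR adjusted p = 0.241) and without any one of mitfa tumours 1, 4, 5 and 6 or sox10 tumours 4, 11 and 12 (edgeR adjusted p up to 0.0827). PLIN2, STARD3 and scarb1 were the 3 genes of the list that did not pass, the first 2 at 0.15 and -0.34.

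**Figure D2:**
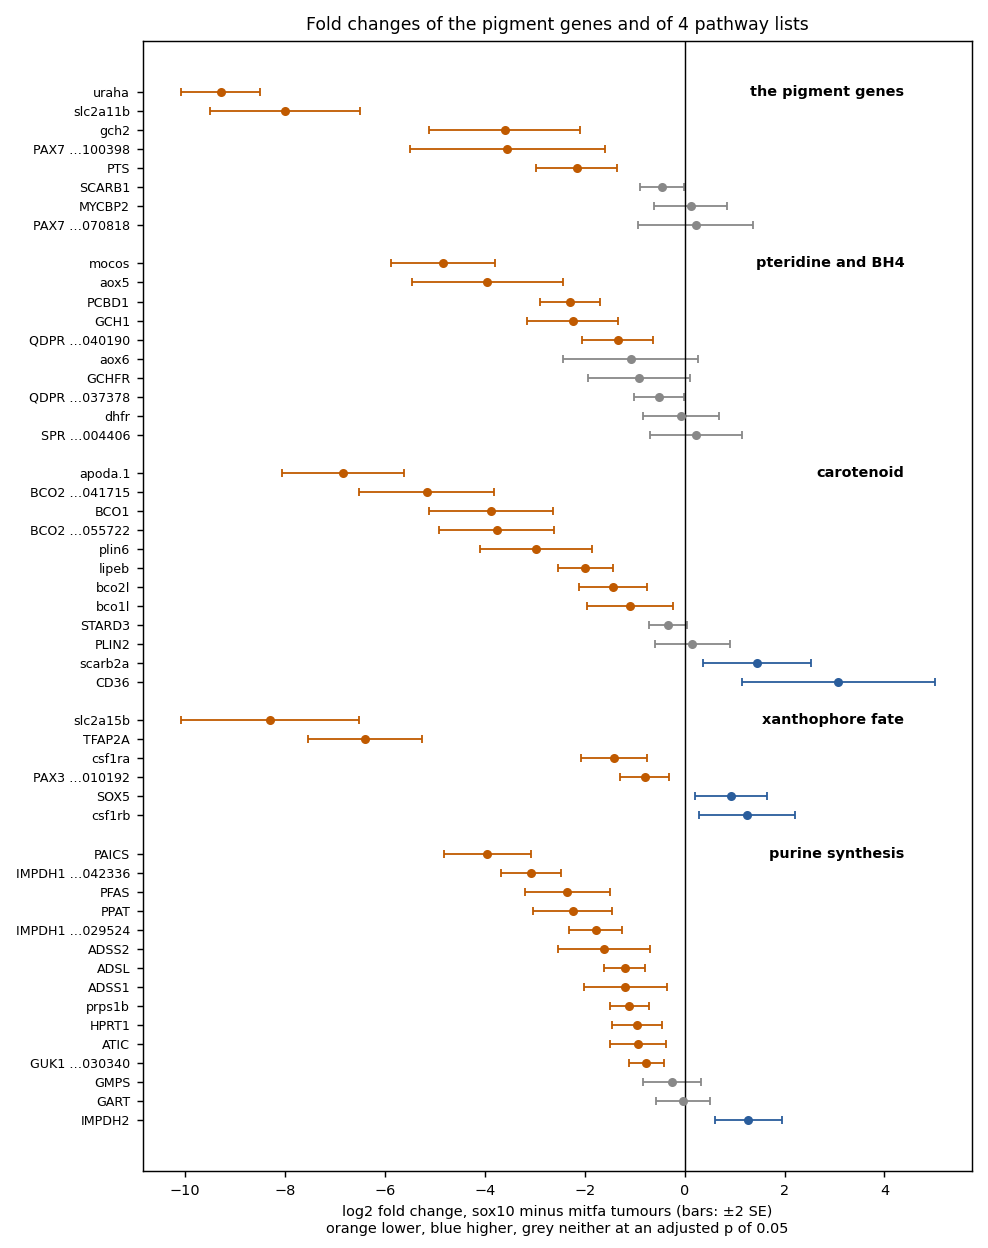
Log2 fold change (sox10 minus mitfa tumours) of the pigment genes and of the other genes of the pteridine, purine, carotenoid and xanthophore fate lists, each gene shown once, with bars of 2 SE to either side. Points left of 0 are lower in sox10 tumours. Of the pigment genes uraha at -9.29 and slc2a11b at -8.01 lie furthest left, and mycbp2 at 0.12 and PAX7 ENSDARG00000070818 at 0.22 lie at 0. XDH was not tested and is not shown.

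The PAX7 copies, transcription factors of xanthophore precursors and of muscle satellite cells, were low in nearly all tumours, and only ENSDARG00000100398 was called lower in sox10 tumours. ENSDARG00000100398 had 5.63, 0.602, 0, 0.116, 28.7 and 1.13 CPM in mitfa tumours 1 to 6. Its level in sox10 tumours ran from 0.0648 to 2.60 CPM with a median of 0.278. Only mitfa tumours 1 and 5 stood above the highest sox10 tumour, which was sox10 tumour 7. The log2 fold change was -3.55 ± 0.98 (SE, edgeR adjusted p = 0.00640), yet it was -1.54 without mitfa tumour 5 (edgeR adjusted p = 0.176) and 0.15 without mitfa tumours 1 and 5 (edgeR adjusted p = 0.916). Limma with sample quality weights gave -1.23 (limma adjusted p = 0.343).

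Muscle markers were also high in mitfa tumour 5, where 10 marker rows summed to 7283 CPM against 14.1 to 2019 CPM in the other mitfa tumours, and 483 CPM in mitfa tumour 1. With a muscle marker score as covariate the PAX7 copy stood at -3.65 (edgeR adjusted p = 0.0584). The highest muscle sum among sox10 tumours, 5617 CPM in sox10 tumour 10, went with 0.453 CPM of this copy, and the lowest, 9.75 CPM in sox10 tumour 7, with its highest value of 2.60 CPM. Only these extremes of the sox10 group are given here, and the part of muscle cells in the level of this copy was not tested.

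The copy ENSDARG00000070818 had 0.265, 0.492, 0.272, 0.752, 3.18 and 1.75 CPM in mitfa tumours 1 to 6, and 0.389 to 2.65 CPM with a median of 0.887 in sox10 tumours. The groups covered the same range, and the log2 fold change was 0.22 ± 0.57 (SE, edgeR adjusted p = 0.776), with an interval of 2 SE from -0.93 to 1.37. The within-tumour log2 ratio of the first copy to the second was different by -1.56 in sox10 tumours (2-sided exact permutation adjusted p = 0.0139 over 12 pairs). Without mitfa tumours 1 and 5 that difference was -0.40 (2-sided exact permutation adjusted p = 0.258). Reads shared by near-identical copies may have been lost or split, which makes both values less certain. Both copies were also often near or below the 0.5 added to CPM, which limits what this ratio can show.

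The xanthophore fate list had a median log2 fold change of -1.41, with 2 genes higher in sox10 tumours and 1 that did not pass. The other 6 of 9 tested genes were lower, against 22.4% of all genes tested. Besides slc2a11b, slc2a15b and the first PAX7 copy, these were TFAP2A, a transcription factor of neural crest and epidermis, csf1ra and PAX3 (ENSDARG00000010192), a neural crest transcription factor. TFAP2A had 99.6 to 529 CPM in mitfa and 0.745 to 12 CPM in sox10 tumours, for -6.40 ± 0.57 on the log2 scale (SE, edgeR adjusted p = 5.53e-08). The receptor csf1ra, which xanthophores and macrophages both need, was at -1.41 ± 0.33 (SE, edgeR adjusted p = 0.00196). Of the macrophage markers other than csf1ra itself, 5 of 8 tested were lower, with a median of -0.98 and sums of 1342 to 3576 CPM in mitfa and 806 to 2437 CPM in sox10 tumours, and their part in csf1ra was not tested. Its duplicate csf1rb rose by 1.25 (edgeR adjusted p = 0.0433), a call lost with the epidermis score (0.97, edgeR adjusted p = 0.104) or the muscle score (1.11, edgeR adjusted p = 0.0673) as covariate and without any one of mitfa tumours 2 to 6 or sox10 tumours 4, 5, 7 and 8 (edgeR adjusted p up to 0.0969). SOX5, a factor that acts on the choice of pigment cell fate in medaka, rose by 0.93 (edgeR adjusted p = 0.0422), a call lost with the epidermis score (0.87, edgeR adjusted p = 0.0888), with sox10 tumours 9 and 10 summed (0.88, edgeR adjusted p = 0.0616) and without any one of mitfa tumours 2, 3, 5 and 6 or sox10 tumours 1, 2, 9, 10 and 12 (edgeR adjusted p up to 0.110). Of the list, 4 genes were lower without mitfa tumours 1 and 5, when PAX3 at -0.74 (edgeR adjusted p = 0.0520) and SOX5 at 1.05 (edgeR adjusted p = 0.0650) also missed the threshold.

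The ubiquitin ligase mycbp2, whose loss in zebrafish reduces the yellow pigment and disturbs axons, showed no difference that passed. Levels in mitfa tumours 1 to 6 were 97.7, 104, 116, 377, 263 and 67.3 CPM. Sox10 tumours ran from 86.1 to 417 CPM with a median of 160.5. The ranges overlapped over almost their whole length, and the log2 fold change was 0.12 ± 0.36 (SE, edgeR adjusted p = 0.812), with an interval of 2 SE from -0.61 to 0.85. Its sign depended on the tumours included, as it was -0.076 without mitfa tumour 6 and -0.053 without sox10 tumour 11.

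Whether pairs of these genes changed by different amounts was tested on the log2 ratio of their levels within each tumour, for 12 pairs, of which 9 passed an adjusted p of 0.05 in the 2-sided exact permutation test. Relative to uraha, gch2 was higher in sox10 tumours by 4.85 (adjusted p = 0.00237, exact permutation) and relative to slc2a11b by 3.59 (adjusted p = 0.00323, exact permutation), so that gch2 fell by less than either. It fell relative to scarb1, with a ratio difference of -2.53 (adjusted p = 0.00840, exact permutation), to mycbp2, at -3.22 (adjusted p = 0.00840, exact permutation), and to the PAX7 copy ENSDARG00000070818, at -3.23 (adjusted p = 0.00162, exact permutation). None of these genes was called lower itself. The PAX7 copy had medians of 0.622 CPM in mitfa and 0.887 CPM in sox10 tumours, near the constant added to CPM. Its ratio therefore mainly follows gch2 and is limited in what it can show of unequal change. The ratio of gch2 to xdh differed by -2.42 (adjusted p = 0.0139, exact permutation). Outside mitfa tumour 5, xdh reached at most 0.930 CPM in mitfa tumours, and its median in sox10 tumours was 0.127 CPM. Its level was thus mostly below or near the constant added to CPM, and the ratio mainly follows gch2. Although counted among the 9, this pair cannot show that gch2 and xdh changed by different amounts. In edgeR with no filter the log2 fold changes were -2.65 for xdh and -3.57 for gch2.

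For 3 pairs the test did not pass. The ratio of gch2 to pts differed by -1.07 with an interval of 2 SE from -2.57 to 0.42, and the ratio of gch2 to its paralog GCH1 by -1.19 with an interval from -3.32 to 0.95. The ratio to the PAX7 copy ENSDARG00000100398 differed by -1.67 with an interval from -4.21 to 0.88. These intervals include 0 as well as differences of several-fold, so neither equal nor unequal change was shown. The ratio to pts passed without mitfa tumour 3, at -1.64 (adjusted p = 0.0246, exact permutation). The ratio to that PAX7 copy passed without mitfa tumour 5, at -2.39 (adjusted p = 0.0358, exact permutation), and without mitfa tumours 1 and 5, at -3.28 (adjusted p = 0.00923, exact permutation). Outside mitfa tumours 1 and 5 that copy reached at most 1.13 CPM in mitfa tumours, and its median in sox10 tumours was 0.278 CPM. Its level was thus mostly near or below the constant added to CPM. These ratios therefore mainly follow gch2 and cannot show unequal change.

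Set against single genes of other pigment cells, gch2 fell by less than the melanosome scaffold gene pmela, with a log2 ratio higher in sox10 tumours by 6.13 (exact permutation p = 5.39e-05, the smallest that the 18564 splits of the tumours can give, adjusted p = 0.000646). It also fell by less than pnp4a, a purine enzyme of iridophores, by 2.77 (adjusted p = 0.00840, exact permutation). Other iridophore markers lay on both sides of the -3.60 of gch2. GPNMB was at -4.44, ltk at -3.28, EDNRB (ENSDARG00000089334) at -2.79, TFEC at -2.29 and ALK at 1.53. Of the melanocyte rows tested, TYRP1 (ENSDARG00000029204) was at -3.27 and MITF (ENSDARG00000037833) at 0.71, and the others fell by more than gch2. The ratios of gch2 to these further markers were not tested. In pmela the mitfa tumours had 3632, 8004, 825, 1984, 9897 and 1968 CPM and the sox10 tumours 3.77 to 9.14 CPM, with no overlap, unlike gch2.

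**Figure D3:**
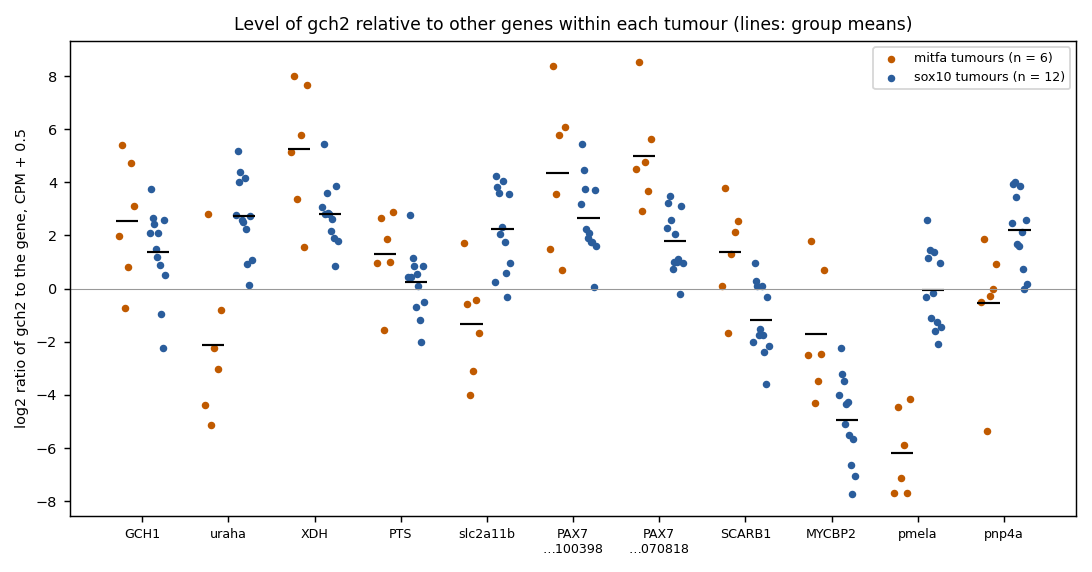
Log2 ratio of gch2 to each of 11 other genes within every tumour, from CPM + 0.5, with mitfa tumours (orange) and sox10 tumours (blue) side by side and the group means as lines. For uraha, slc2a11b and pmela the mean of the sox10 tumours lies higher, by 4.85, 3.59 and 6.13, and for scarb1 and mycbp2 it differs by -2.53 and -3.22.

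Within the mitfa group the genes fell into contrasting orders across tumours. Mitfa tumours 1 and 5 were the lowest 2 of the 6 for slc2a11b, slc2a15b and BCO2 (ENSDARG00000041715, at 1.46 and 1.38 CPM against 7.22 to 38.5 CPM) and the highest 2 for uraha, the PAX7 copy ENSDARG00000100398, slc2a15a, plin6 and the PAX3 copy ENSDARG00000028348, at 18.4 and 5.28 CPM against at most 0.637 CPM. The summed epidermis markers were lowest in the same 2 tumours, with 465.7 and 593 CPM against 1754 to 5566 CPM in the other 4, and krt5, an epidermal keratin, had 4.44 and 3.28 CPM against 536 to 3492 CPM. The adhesion gene cdh1 of that list did not follow, with 410 and 497 CPM against 137 to 456 CPM, and made up most of the sum in these 2 tumours. Sox10 tumours had epidermis sums of 15.3 to 2160 CPM. With an epidermis marker score as covariate slc2a11b was at -6.86 (edgeR adjusted p = 1.79e-06), slc2a15b at -6.86 (edgeR adjusted p = 0.000301) and BCO2 (ENSDARG00000041715) at -3.65 (edgeR adjusted p = 0.000102). That score includes cdh1, which was itself lower in every sox10 tumour, at 1.03 to 51.3 CPM and a log2 fold change of -4.59. The score thus partly follows the groups, and the part of epidermis in these genes was not tested. Mitfa tumours 1 and 5 also had the highest neural marker sums of the group, at 425 and 116 CPM against 15.9 to 79.8 CPM. The neural marker OLIG2 had 57.8 and 80.9 CPM there against 0.656 to 1.25 CPM. Their macrophage sums were highest as well, at 3707 and 3419 CPM against 1588 to 2323 CPM. The part of neural cells and macrophages in these genes was not tested either.

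**Figure D4:**
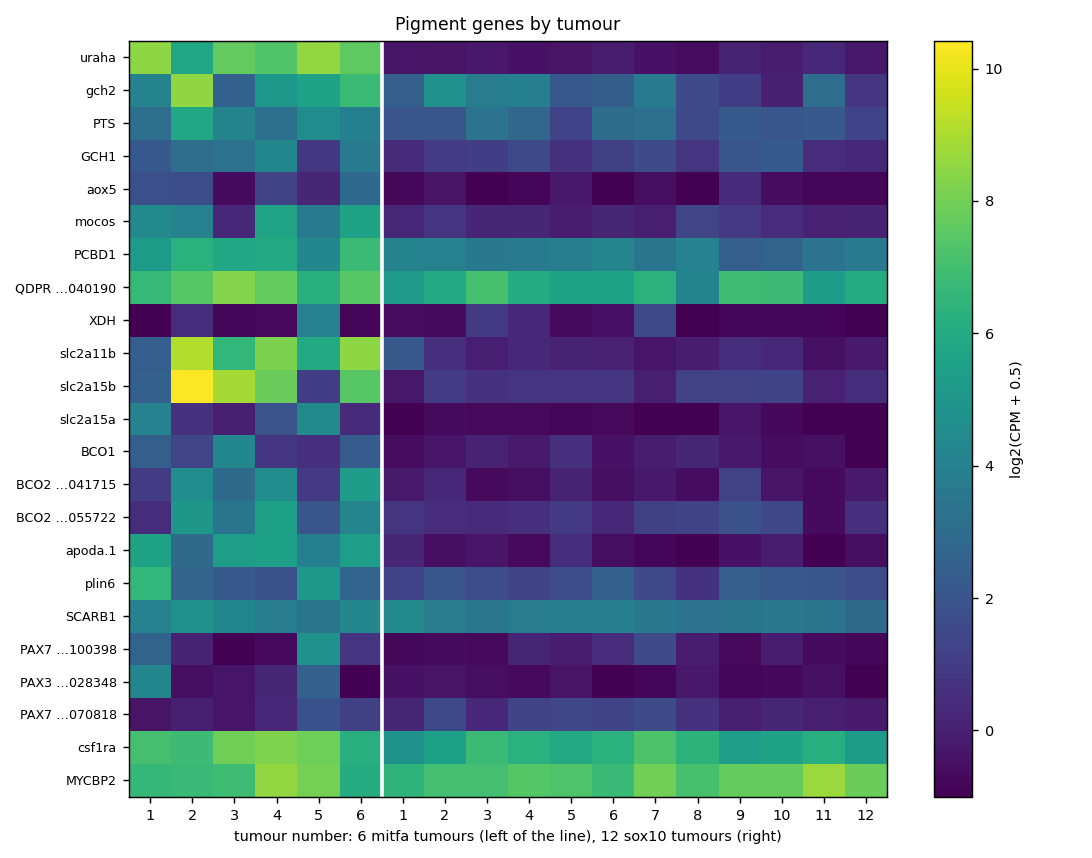
Heat map of 23 pigment pathway genes (rows) in the 18 tumours (columns, mitfa 1 to 6 and then sox10 1 to 12), coloured by log2(CPM + 0.5) from dark blue (low) to yellow (high). Among mitfa tumours, numbers 1 and 5 are the darkest for slc2a11b and slc2a15b and the brightest for slc2a15a and plin6, and in the sox10 columns uraha is dark throughout.

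The same contrast shows in how the genes varied together around their group means over the 18 tumours, given as a description on log2(CPM + 0.5). The deviations of uraha and slc2a11b had a Pearson r of -0.66, those of gch2 and pts 0.58, those of xdh and the PAX7 copy ENSDARG00000100398 0.71, and those of the PAX7 copies 0.58. All points share their libraries, and mitfa tumour 5 is high for both xdh and PAX7. On this scale the SD of uraha and slc2a11b was 0.26 and 0.69 in sox10 tumours, against 1.05 and 2.45 in mitfa tumours. Correlations with these 2 genes, here and below, therefore mainly follow the mitfa tumours.

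For each pigment gene the named genes with a mean of at least 2 CPM were ranked by the correlation of these same deviations from the group means over the 18 tumours, so a high r says that 2 genes vary alike within the groups and nothing of the difference between them. There were 13654 such genes for each gene named here except xdh, for which there were 13655. Among the 5 genes closest to slc2a11b was KCNK6, a potassium channel, with r = 0.85. The closest to uraha were DLG2, a scaffold protein of synapses, at 0.80 and ADRM1, a proteasome receptor, at 0.79, followed by cep89 and the opsin opn7c, both at 0.76, and the closest to gch2 were the transcription factor maff at 0.84 and faim2a at 0.83. For pts it was PHKG2, a subunit of phosphorylase kinase, at 0.91. For mycbp2 the closest were UBR4 at 0.96 and, as the fifth, HUWE1 at 0.93, which like mycbp2 encode very large ubiquitin ligases. The PAX7 copy ENSDARG00000100398 was closest to bmp16, a growth factor of the BMP family, at 0.91, and xdh to EFR3B (ENSDARG00000033516) at 0.89. Scarb1 was closest to SLC16A13, a transporter, at 0.80.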

How the data were processed

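The authors' deposited table holds raw read counts per gene, which are whole numbers and are called raw in its sheet name. FastQC, Trimmomatic, STAR, DESeq2 and the build GRCz10 are named, without versions or roles, in the submitters' processing notes, while annotation and strandedness were not given in the sources used here. Another 4 entries that name no gene (19.9% to 30.1% of reads per library) were left out of library sizes and tests. Names came from a reference table, which named 24020 of 27057 genes, and the pigment genes matched exactly, ignoring case or without the final letter, all copies kept. One gene that the rule for named genes gives is not reported here.

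Counts of 18731 genes passing filterByExpr (count minimum 10, total minimum 15) entered the quasi-likelihood F test of edgeR 4.0.16 (R 4.3.3) with TMM factors, robust dispersion, no covariate and Benjamini-Hochberg adjustment over all genes tested. The standard error of a log2 fold change is its size over the root of F. Log2 ratios and the gene below the filter used log2(CPM + 0.5) and exact permutation over all 18564 splits. On counts simulated for 18557 genes of this comparison the test made 124 calls, 6 of them false, and found 10.7% of the genes changed 2-fold, 63.0% of those changed 4-fold and 94.3% of those changed 16-fold. Only 56, 73 and 70 genes were changed by these amounts, far fewer than the 8214 called in the real data. The shares found may therefore differ in the real comparison. Alternatives were DESeq2 1.42.0, limma 3.58.1, other size factors and filters, a replicate block, 3 covariates, summed or left-out libraries and other pseudocounts.

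Named genes were the pigment genes, the genes of the lists and, for each pigment gene, up to 5 genes with the most similar pattern. The genes and lists were chosen with earlier results of these data known. No sequences or coordinates were used here, and the planned search for promoter motifs was not run.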

Additional observations from a re-analysis of the deposited data

Results flagged for a closer look

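The levels of 4 genes each had 1 tumour that stood apart from the rest of the mitfa group, in that the highest tumour's distance to the next made up most of the whole range of the group. For normally distributed values chance would flag about 1 in 20 groups in this way. The CPM of these genes are skewed toward high values, so their rate of chance flags is not known. In mitfa tumour 2, gch2 had 363 CPM against 111 CPM in the next mitfa tumour, a gap of 0.705 of the range. In the same tumour pts had 57.2 CPM against 22.9 CPM, a gap of 0.702 of the range. In mitfa tumour 5, xdh had 15.5 CPM against 0.930 CPM in the next, a gap of 0.940 of the range. The PAX7 copy ENSDARG00000100398 had 28.7 CPM in the same tumour against 5.63 CPM, a gap of 0.804 of the range.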

How the results depend on the processing

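Of the counts of calls, those that moved by more than 1.5 times did so under 3 settings. A filter of 5 CPM in 6 tumours left 3 pigment genes lower, and 4, 2 and 3 genes of the pteridine, carotenoid and fate lists, since it tests fewer genes. With the replicate block, on the 12 tumours with numbers 1 to 6, 2216 genes were lower and 2279 higher, 2 pigment genes, 4 pteridine and 6 purine genes were lower, and the edgeR adjusted p was 0.0606 for gch2 (-2.42), 0.0510 for pts (-1.80) and 0.400 for the PAX7 copy ENSDARG00000100398 (-1.88). The numbers did not pair the tumours (correlations of -0.29 to 0.16), and no mitfa tumour correlated best with its own number. With reads outside genes, as a share, for covariate 2489 genes were lower and 2432 higher, 6 purine genes were lower, and that PAX7 copy was at -3.62 (edgeR adjusted p = 0.223), for which the cause was not tested.

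Leaving out single tumours gave 3681 to 4217 genes lower and 3528 to 4017 higher, 5 to 6 pigment genes lower and 0 higher, 6 to 10 pteridine, 10 to 12 purine, 7 to 9 carotenoid and 5 to 7 fate genes lower, and 9 to 10 gene pairs past the threshold. Signs turned for mycbp2 under the replicate block (-0.21), the outside-genes covariate (-0.88) and without mitfa tumour 6 (-0.076) or sox10 tumour 11 (-0.053, range over single tumours left out -0.076 to 0.51), for that PAX7 copy without mitfa tumours 1 and 5 (0.15), and for xdh without mitfa tumour 5 (0.23, the range over single tumours left out being -0.77 to 0.23) or mitfa tumours 1 and 5 (0.12), and the cause was not tested. The list counts under the alternatives were chosen after seeing the data. Depth limits xdh, aox5 and both PAX7 copies, which had few reads in most tumours. In sox10 tumours uraha had 3 to 11 reads and slc2a11b 3 to 83 reads per tumour. The sizes of their falls and of their ratios to gch2 thus rest on a group near 0.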
